A study of Mus musculus with 4 samples.

Results

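The 8 genes described here take up butyrate at the surface of the colonocyte, oxidise it, turn its products into or out of ketone bodies, or sense it. They were chosen by function from the gene symbols, with earlier results of these data known. They are Slc16a1, Slc5a8, Bsg, Acads, Acadm, Bdh1, Oxct1 and Ffar2, that is 8 of 55203 genes and 40 of 141738 transcripts listed. A gene's level is the sum of the FPKM values (fragments scaled to transcript length and to the mapped fragments of the library) of its transcripts. Intestinal RNA was sequenced from wild-type C57BL/6NTac mice, adult males 8 to 12 weeks old kept in SPF (specific pathogen free) condition, in 2 libraries labelled as processed with 4 mM RVC and 2 labelled fresh frozen. RVC, the ribonucleoside vanadyl complex, is an inhibitor of ribonucleases, and the protocol text describes a rinse in cold RVC for all 4 libraries, so the labels alone set the groups apart. The labels do not say whether libraries of a group came from separate mice, so the p-values measure the spread between these libraries, which may be technical. The batch numbers in the labels differ for every library, and a batch therefore cannot be told apart from its group.

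Butyrate is a short-chain fatty acid that gut bacteria make from dietary fibre, and colonocytes burn it as a main fuel. It enters through the proton-coupled carrier MCT1 (Slc16a1), which needs the chaperone basigin (Bsg) to reach the membrane, and through the sodium-coupled carrier SMCT1 (Slc5a8). In mitochondria it is activated to butyryl-CoA and oxidised to acetyl-CoA, starting with the short-chain acyl-CoA dehydrogenase (Acads). Acetoacetate and beta-hydroxybutyrate, the ketone bodies, are interconverted by Bdh1, and acetoacetate is returned to fuel use by the CoA transferase SCOT (Oxct1). Oxct1 is therefore an enzyme of ketone use and not of ketogenesis. Ffar2 is a receptor for short-chain fatty acids found on enteroendocrine cells and leukocytes.

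Coding exons that are present in some transcripts and absent from others separate the main forms of Oxct1 and of Bsg, and are shown here for both genes. In Oxct1 it is a 102-nt exon on chromosome 15, from 4177047 to 4177148, exon 16 of 17, which holds 34 whole codons. It is printed with 12 intronic bases on each side as chr15:4177035-4177160 (GRCm39, + strand, GENCODE vM39 exons), with the exon in capitals.
Oxct1 exon: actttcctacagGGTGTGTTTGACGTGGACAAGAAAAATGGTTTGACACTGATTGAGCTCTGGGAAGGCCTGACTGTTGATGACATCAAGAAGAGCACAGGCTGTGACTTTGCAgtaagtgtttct
The transcript without it joins the exon ending at 4172354 to the exon starting at 4183210. This junction is printed with the upstream exon in lower case and the downstream exon in capitals.
Oxct1 junction without the exon: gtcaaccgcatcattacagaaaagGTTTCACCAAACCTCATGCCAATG
In Bsg it is a 348-nt exon on chromosome 10, from 79544531 to 79544878 (GRCm39, + strand), exon 2 of 8, which holds 116 codons. Both junctions out of the exon ending at 79540418 are shown in the same way, the first running to 79545505 and the second into the additional exon.
Bsg junction without the exon: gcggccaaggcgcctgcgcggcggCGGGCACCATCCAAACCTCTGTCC
Bsg junction into the exon: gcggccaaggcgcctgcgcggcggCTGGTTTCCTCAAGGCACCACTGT

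The tissue label reads ileum, whereas the protocol and the design text name the distal colon. All 6 colon genes found were at 1 FPKM or more in all 4 libraries, and of the 7 ileum genes Fgf15, Apoa4, Defa17 and Defa22 were listed at 0 in all of them. The ileum genes Fabp6 (2.70 to 3.96 FPKM) and Slc10a2 (2.33 to 3.07 FPKM) were above 1 FPKM in all 4. The colon genes summed to 3024 and 2611 FPKM in RVC 1 and 2, and to 2690 and 2385 in fresh frozen 1 and 2. The ileum genes summed to 5.14, 6.46, 7.04 and 5.79 FPKM in the same order. Most of each colon sum came from Car1 (1576 to 1781 FPKM) and Aqp8 (642 to 1046 FPKM). Both are also on the list of absorptive colonocyte markers. Sequencing depth is unknown because the values are FPKM. Read coverage per FPKM, a relative measure, put the libraries between 72.6% and 100% of the deepest. The number of genes at 1 FPKM or more lay between 14247 and 14573. Smooth muscle markers were higher in both RVC libraries than in both fresh-frozen libraries for 10 of 10 genes, as were endothelial markers for 8 of 8. Over all genes tested the share higher in this way was 26.5%. Red blood cell markers summed to 363 FPKM in RVC 1 and in fresh frozen 1, against 105 in RVC 2 and 66.4 in fresh frozen 2.

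Of the 8 genes, 7 were abundant and 1, Ffar2, was below 1 FPKM. On the deposited FPKM scale the order was Bsg, Oxct1, Slc16a1, Slc5a8, Acadm, Acads, Bdh1 and Ffar2. Neighbours in this order did not overlap in range over the 4 libraries except for Slc5a8 with Acadm and Acads with Bdh1. Slc5a8 was above Acadm in 2 of the 4 libraries.

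**Figure D1:**
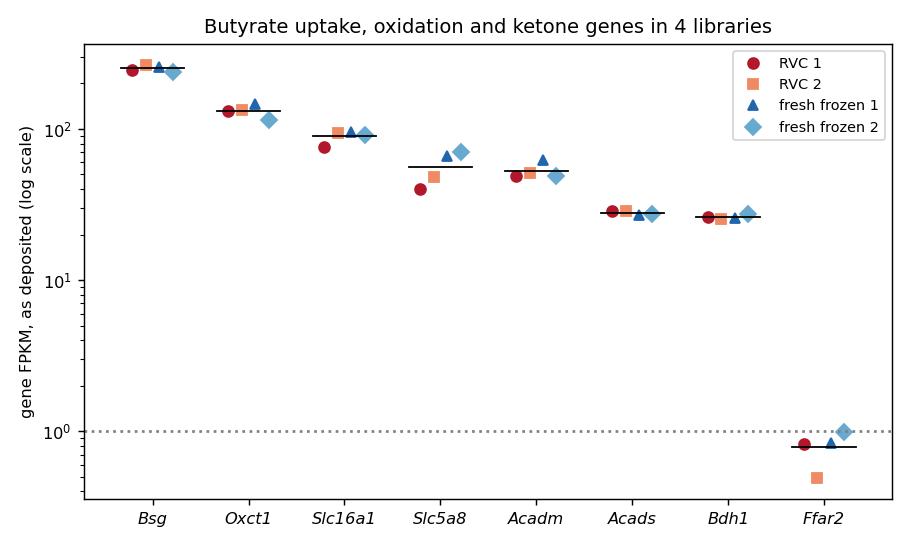
Gene FPKM as deposited (log axis) of the 8 genes in each library; points are libraries, black bars are means over the 4 libraries and the dotted line is 1 FPKM. Bsg lies between 239.5 and 266 FPKM, Ffar2 lies below 1 FPKM in every library, and for Slc5a8 both RVC libraries lie below both fresh-frozen libraries.

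The carrier Slc16a1 (ENSMUSG00000032902, chromosome 3, 104545984 to 104565778, GRCm39) measured 76.04 and 94.1 FPKM in RVC 1 and 2, and 95.8 and 90.9 in fresh frozen 1 and 2. Its mean was 89.2 ± 9.01 FPKM (SD, n = 4), between the percentiles 93.4 and 94.8 of genes at 1 FPKM or more in the same library. RVC 1 was the lowest library, and the groups overlapped. Bsg (ENSMUSG00000023175, chromosome 10, 79540325 to 79547803), which escorts Slc16a1 to the membrane, measured 246, 266, 257 and 239.5 FPKM in the same order of libraries, with a mean of 252 ± 12.04 (SD, n = 4). It had the highest level of the 8 genes in each library, and its groups overlapped. The ratio of Slc16a1 to Bsg was 0.310 and 0.353 in RVC 1 and 2, and 0.372 and 0.379 in fresh frozen 1 and 2. Both RVC libraries were lower, although 2 against 2 libraries cannot give an exact permutation p under 0.33, which is the value found (two-sided, 0.833 after Benjamini-Hochberg adjustment over the 5 ratios compared).

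Slc5a8 (ENSMUSG00000020062, chromosome 10, 88721854 to 88765377), the sodium-coupled carrier, measured 40.3 and 48.4 FPKM in RVC 1 and 2, and 66.3 and 70.6 in fresh frozen 1 and 2. Its mean was 56.4 ± 14.4 FPKM (SD, n = 4). Both RVC libraries were lower than both fresh-frozen libraries, and among the 7 genes with enough signal to test, Slc5a8 showed the largest difference between the groups. After median-ratio scaling, the fresh-frozen mean of 68.3 ± 4.03 FPKM (SD, n = 2) was 1.54 times the RVC mean of 44.4 ± 5.57 (SD, n = 2). On the log2(scaled FPKM + 1) scale the difference of RVC minus fresh frozen was -0.61 (SE 0.124, 95% interval -0.91 to -0.32). The unadjusted limma p was 0.0015 and the Benjamini-Hochberg adjusted p over all 13771 genes tested was 0.129, so the difference did not pass the threshold of 0.05.

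The Slc5a8 difference stood beside differences in cell type markers, whose part in it was not tested. Summed smooth muscle markers measured 1370 and 2018 FPKM with RVC, and 876 and 914 fresh frozen. Plasma cell markers summed to 921 and 819 FPKM with RVC, against 311 and 527, with 5 of 6 genes higher in both RVC libraries. Macrophage markers summed to 53.1 and 53.2 FPKM with RVC, against 39.7 and 30.6, also with 5 of 6 genes higher. These lists, and that of absorptive colonocytes given below, had their higher sums in the libraries where Slc5a8 was lower. Markers of crypt base and dividing cells summed to 18.6 and 20.2 FPKM with RVC, against 24.5 and 30.5, with 3 of 7 genes lower in both RVC libraries. Enteroendocrine markers, given below with Ffar2, also had lower sums in both RVC libraries. Epithelial markers summed to 6684 and 6576 FPKM with RVC, and to 7236 and 5451 fresh frozen, and 5 of the 10 genes were higher in both RVC libraries and 0 lower, where 26.5% of all genes tested were higher and 26.6% lower. Markers of absorptive colonocytes summed to 7785, 6710, 6322 and 5441 FPKM in RVC 1 and 2 and fresh frozen 1 and 2. Both RVC sums were thus above both fresh-frozen sums. Of these 6 absorptive genes 2 were higher in both RVC libraries and 0 lower, and the list's median (1147, 966, 1021 and 774 FPKM) overlapped between groups. When the libraries were scaled to the 10 epithelial genes, the Slc5a8 difference was -0.75, with an adjusted limma p of 0.0725. That scaling moved the median difference of all genes from 0.01 to -0.11. In bulk RNA, fewer cells of a type and less RNA per cell cannot be told apart.

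The ratio of the carriers to each other followed from these values. Slc16a1 stood at 1.89 and 1.94 times Slc5a8 with RVC, and at 1.45 and 1.29 times fresh frozen. These ranges did not overlap, with an exact permutation p of 0.33 (two-sided), the smallest that 2 against 2 libraries allow.

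The list of other carriers and chaperones had 5 tested genes, with 3 positive and 2 negative signs and a median log2 difference of 0.33. Over all genes tested, 7023 signs were positive and 6748 negative. Slc16a1 was the most abundant of the 14 genes of its family listed, by mean level. It carried 48.5% and 57.02% of the summed family FPKM in RVC 1 and 2, and 62.9% and 59.5% in fresh frozen 1 and 2. Slc16a5, a relative with other substrates, was next at 48.6 ± 8.27 FPKM (SD, n = 4). It measured 60.1, 48.4, 40.8 and 45.2 FPKM in the order given above and was higher in both RVC libraries. Slc16a3, the lactate exporter MCT4, measured 9.17 and 11.5 FPKM with RVC, and 4.89 and 5.13 fresh frozen. Its log2 difference of 0.92 (SE 0.142) did not pass, with an adjusted limma p of 0.112. Slc16a6 measured 0.925 and 0.969 FPKM against 1.77 and 1.57, a log2 difference of -0.45 with an adjusted limma p of 0.198. Embigin (Emb), the chaperone that can stand in for basigin, was at 1.25 ± 0.134 FPKM (SD, n = 4).

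Acads (ENSMUSG00000029545, chromosome 5, 115248358 to 115257405), which opens the oxidation of butyryl-CoA, had the smallest SD of the 8 genes relative to its mean. It measured 28.5 and 28.8 FPKM in RVC 1 and 2, and 26.9 and 27.4 in fresh frozen 1 and 2, with a mean of 27.9 ± 0.861 (SD, n = 4). Both RVC libraries were above both fresh-frozen libraries by a small margin. The log2 difference was 0.08 (95% interval -0.17 to 0.32, adjusted limma p 0.709). Its group means after scaling were 28.6 and 27.1 FPKM. Acadm (ENSMUSG00000062908, chromosome 3, 153627994 to 153650269), the medium-chain enzyme, measured 48.8, 51.5, 62.2 and 48.5 FPKM in the same order, with a mean of 52.8 ± 6.45 (SD, n = 4). Fresh frozen 1 was the highest and fresh frozen 2 the lowest, so the groups overlapped.

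Acads was below Acadm in every library, at 0.583, 0.558, 0.432 and 0.565 of its level. Among the 12 acyl-CoA dehydrogenase genes listed, Acadm ranked next after the leading gene by mean FPKM, and Acads stood lower. The long-chain enzyme Acadl led at 59.4 ± 3.78 FPKM (SD, n = 4), and Acad11 (48.1 ± 3.16) and the very-long-chain enzyme Acadvl (36.4 ± 2.64) lay between Acadm and Acads.

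Oxct1 (ENSMUSG00000022186, chromosome 15, 4055865 to 4184826), the enzyme that commits acetoacetate to oxidation, measured 131.2 and 133 FPKM in RVC 1 and 2, and 145 and 115 in fresh frozen 1 and 2. Its mean was 131.1 ± 12.5 FPKM (SD, n = 4), between the percentiles 95.8 and 96.3 of genes at 1 FPKM or more. The fresh-frozen libraries were the highest and the lowest, and the groups overlapped. Bdh1 (ENSMUSG00000046598, chromosome 16, 31241098 to 31277719), which interconverts the ketone bodies, measured 25.95, 25.2, 25.6 and 27.4 FPKM, with a mean of 26.1 ± 0.930 (SD, n = 4). It stood at 0.198, 0.190, 0.176 and 0.238 of the Oxct1 level, a ratio with no order by group (exact permutation p 1, two-sided).

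Ffar2 (ENSMUSG00000051314, chromosome 7, 30517773 to 30523200), the receptor, measured 0.818 and 0.488 FPKM in RVC 1 and 2, and 0.833 and 0.981 in fresh frozen 1 and 2. Its mean of 0.780 ± 0.208 FPKM (SD, n = 4) was under the minimum of 1 set for testing, so it has no p-value. RVC 2 was the lowest library. Of the cells known to carry the receptor, enteroendocrine markers summed to 261, 219, 277 and 348 FPKM. Of these 8 markers, 7 were lower in both RVC libraries, as were 26.6% of all genes tested. Their part in the Ffar2 level was not tested. Neutrophil markers were mostly near 0, with Mpo listed at 0 in all libraries and a median marker level of at most 0.139 FPKM. Ly6g was the exception at 170 to 333 FPKM.

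Of the 7 genes tested, 0 passed an adjusted p of 0.05 in limma, and 1 of them, Slc5a8, was at an unadjusted p under 0.05. Over all genes tested the adjusted threshold was passed by 0.0363% (0.0145% higher and 0.0218% lower in RVC) and the unadjusted one by 18.4%. The groups did not overlap for 2 of the 7 genes, Acads higher in RVC and Slc5a8 lower, which is a smaller share than the 53.2% found over all genes. The remaining log2 differences were -0.14 for Slc16a1 (95% interval -0.44 to 0.17), -0.13 for Acadm (-0.44 to 0.19), -0.04 for Bdh1 (-0.30 to 0.21), 0.05 for Bsg (-0.22 to 0.32) and 0.04 for Oxct1 (-0.27 to 0.35). Their adjusted limma p-values lay between 0.583 and 0.903. These intervals leave room for a difference of up to 0.44 in size on the log2 scale in either of the first 2 genes. The signs of Bsg, Acads and Oxct1 turned when libraries were scaled to the epithelial genes, and Bdh1 moved to -0.63 (adjusted limma p 0.176) when its most abundant transcript stood for the gene.

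**Figure D2:**
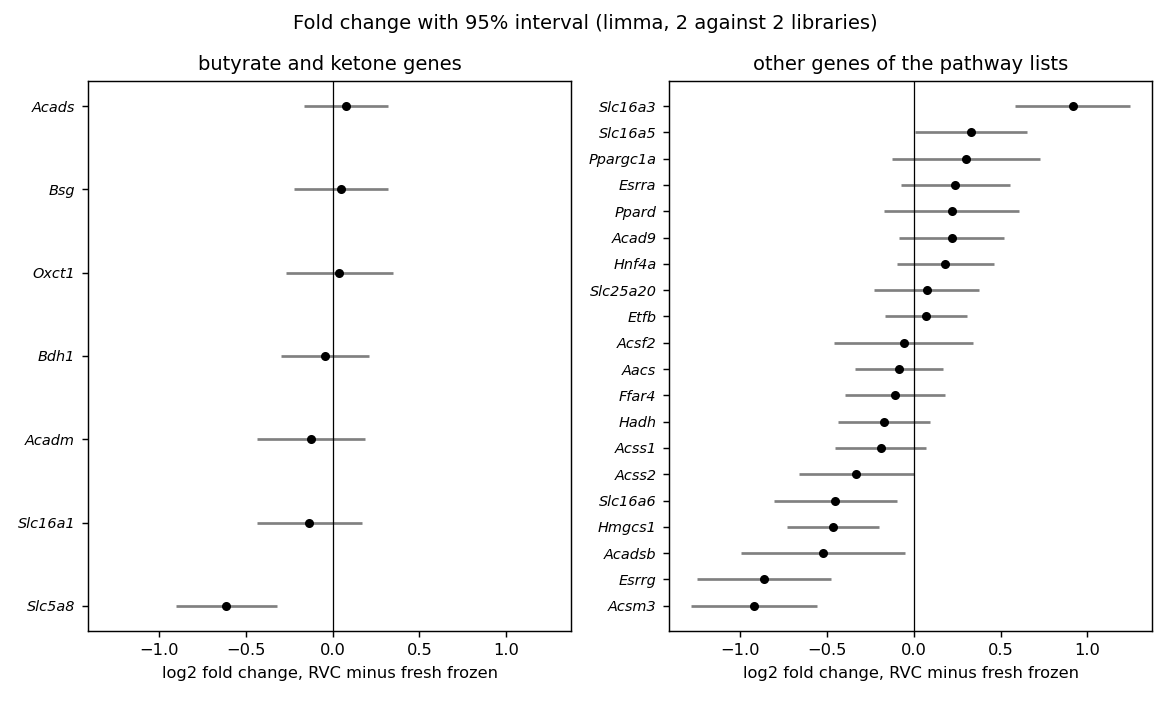
Log2 difference of RVC minus fresh frozen with its 95% interval (limma, 2 against 2 libraries) for the 7 genes tested on the left and for named genes of the pathway lists on the right; the vertical line is no difference. Slc5a8, at -0.61, is the only gene on the left whose interval does not reach 0, and on the right Slc16a3 at 0.92 and Acsm3 at -0.92 lie farthest apart.

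Some transcript estimates differed between the groups by more than their gene sums did, those of Oxct1 and Bdh1 among them. Of the 20 transcripts tested, 0 passed the adjusted threshold. Cufflinks divides the reads of overlapping transcripts by likelihood, so these values are estimates of a split. The marker differences given beside Slc5a8 run alongside every transcript difference below, and their part was not tested. Slc16a1 and Slc5a8 are listed with 1 transcript each and have no split. The 20 tested are those of the 40 at a mean of at least 1 scaled FPKM and 300 nt. Of them, 6 were at an unadjusted p under 0.05, and 8 had groups that did not overlap. Over all 24174 transcripts tested, 0.00414% passed, 15.5% were at an unadjusted p under 0.05, and 50.2% did not overlap. Of the 18 shares of a gene that could be compared for these genes, 11 did not overlap between groups, against 42.7% of all shares. They included shares of Acads, Acadm and Bsg as well as of Oxct1 and Bdh1.

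Oxct1 had 2 full-length coding transcripts, which differ in the 102-nt exon printed above and, in the deposited models, in length (3527 nt with the exon and 1743 nt without it), the longer one running further at both ends. The form with the exon (ENSMUST00000110690) measured 77.2 and 78.9 FPKM in RVC 1 and 2, and 106 and 81.3 in fresh frozen 1 and 2. The form without it (ENSMUST00000138927) measured 17.3, 14.6, 10.3 and 8.70 FPKM. The form without the exon was higher in both RVC libraries and the form with it lower in both. Of the 2 forms together, the one without the exon made up 18.3% and 15.6% in RVC 1 and 2, and 8.85% and 9.67% in fresh frozen 1 and 2. The bounds that Cufflinks gave for the form without the exon were 15.3 to 19.3 and 12.8 to 16.5 FPKM with RVC, and 8.69 to 12 and 7.41 to 9.99 fresh frozen. Its log2 difference was 0.70 (SE 0.145, adjusted limma p 0.232 over all transcripts tested), which did not pass. For the form with the exon, the bounds of RVC 1 (73.4 to 80.9 FPKM) and RVC 2 (75.1 to 82.8) overlapped those of fresh frozen 2 (77.5 to 85.05). The log2 difference of that form was -0.24 (SE 0.148, adjusted limma p 0.470).

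The other Oxct1 transcripts at 10% or more of the gene were 2 partial ones with no coding sequence annotated. ENSMUST00000131240, which lies between 4076741 and 4121975, measured 16.7 and 18.1 FPKM with RVC, and 8.08 and 8.81 fresh frozen. Its log2 difference of 0.96 (SE 0.121) did not pass either, with an adjusted limma p of 0.178. ENSMUST00000124591, of 480 nt, holds the same exon and measured 19.8, 21.2, 20.3 and 15.8 FPKM. The sum over the 2 full-length forms, 94.5, 93.6, 117 and 89.95 FPKM, overlapped between groups.

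Bdh1 had 3 main coding transcripts that share the same 1029-nt coding sequence and start from 3 different noncoding first exons. These first exons lie on chromosome 16 at 31241087 to 31241330 for ENSMUST00000089759, 31247566 to 31247805 for ENSMUST00000115227 and 31248117 to 31248409 for ENSMUST00000115226 (GRCm39, GENCODE vM39). Their 3′ ends differ too, at 31276315, 31277719 and 31276040. The transcript from the last of these first exons, ENSMUST00000115226, measured 5.57 and 6.38 FPKM in RVC 1 and 2, against 3.65e-05 and 0.205 in fresh frozen 1 and 2. The upper Cufflinks bounds in the fresh-frozen libraries were 0.0608 and 0.388 FPKM, under the lower bounds of 4.39 and 5.06 in the RVC libraries. Its log2 difference was 2.66 (SE 0.187), with an adjusted limma p of 0.0867 that missed the threshold. With a pseudocount of 0.1 in place of 1 it was 5.11, with an adjusted limma p of 0.256.

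The Bdh1 transcript from the most upstream exon had the opposite sign. ENSMUST00000089759 measured 6.60 and 9.61 FPKM with RVC, and 14.2 and 12.1 fresh frozen, a log2 difference of -0.65 (SE 0.196, adjusted limma p 0.271). The sum of the 2 transcripts was 12.2, 16, 14.2 and 12.3 FPKM in the same order, so the groups overlapped once they were added. ENSMUST00000115227 measured 9.88, 8.70, 11.1 and 9.71 FPKM and made up 44.8%, 35.2%, 43.8% and 44.03% of the 3 transcripts. ENSMUST00000149039 varied within groups, at 3.16 and 0.386 FPKM with RVC, and at 0.000349 and 4.62 fresh frozen. A noncoding gene on the opposite strand, Gm15743 (31244605 to 31248606), spans the first exons of ENSMUST00000115227 and ENSMUST00000115226 and measured 1.18 to 1.44 FPKM. Whether reads were assigned by strand is not given in the sources used here.

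**Figure D3:**
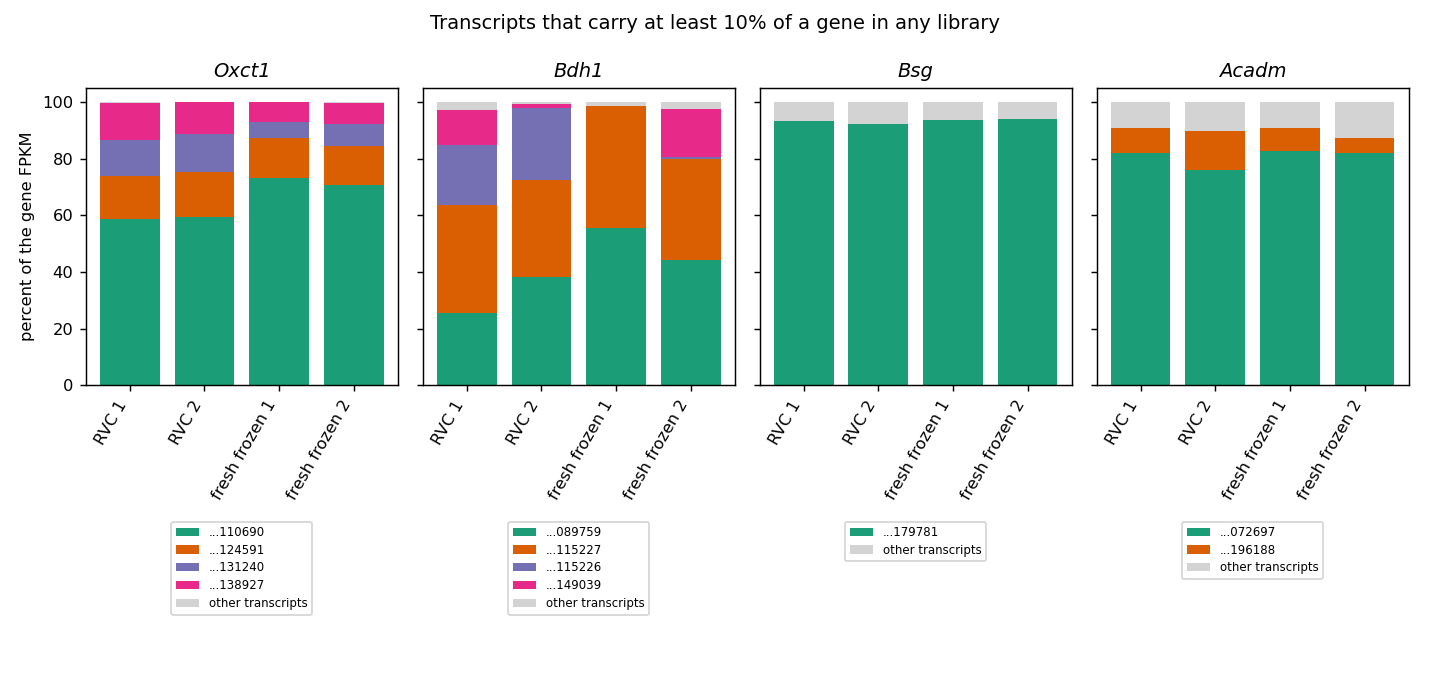
Percent of the gene's summed FPKM carried by each transcript with at least 10% in any library, for Oxct1, Bdh1, Bsg and Acadm, with 1 stacked bar for each library and the remaining transcripts in grey; labels give the end of the transcript identifier. The Bdh1 transcript ENSMUST00000115226 fills 21.4% and 25.3% of the RVC bars and at most 0.749% of the fresh-frozen bars, whereas Bsg keeps 1 transcript at 92.4% to 93.8% throughout.

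Bsg was carried by the same transcript in each library. Its main transcript ENSMUST00000179781, which lacks the 348-nt exon, measured 229, 246, 241 and 225 FPKM and made up 92.4% to 93.8% of the gene. The transcript with the exon, ENSMUST00000067036, differs from it in that exon and, in the deposited models, at both ends. ENSMUST00000067036 encodes the longer basigin and measured 2.37, 2.38, 2.57 and 2.17 FPKM. The longer form made up 1.03%, 0.958%, 1.05% and 0.957% of both, with no order by group.

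Acads and Acadm each rested on 1 coding transcript. For Acads, ENSMUST00000031524 measured 25.4, 25.5, 25.04 and 25.6 FPKM, that is 88.8% to 93.4% of the gene. Its groups overlapped, with a log2 difference of 0.01, unlike those of the gene sum. The Acads transcript ENSMUST00000153374, with no coding sequence annotated, measured 2.73 and 2.46 FPKM with RVC, and 1.87 and 1.55 fresh frozen. Its log2 difference of 0.41 did not pass, with an adjusted limma p of 0.327. For Acadm, ENSMUST00000072697 measured 40.01, 39.1, 51.5 and 39.8 FPKM, 75.9% to 82.7% of the gene. A retained-intron transcript of Acadm, ENSMUST00000196188, held 5.19% to 14.03%. Another, ENSMUST00000200250, held at most 6.14% and measured 0.782 and 1.58 FPKM with RVC, and 3.59 and 2.98 fresh frozen. Its log2 difference of -0.99 (SE 0.234) did not pass, with an adjusted limma p of 0.245. Ffar2 rested on ENSMUST00000053156, with 73.7% or more of the gene in each library, and ENSMUST00000163504, with at most 26.3%.

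The wider pathway was described through 6 lists with 68 other genes, of which 66 were listed and 50 tested. Of the 50, 0 passed an adjusted p of 0.05 in limma, against 0.0363% of all genes tested. An unadjusted limma p under 0.05 was reached by 11 of the 50, against 18.4% of all genes tested. The groups did not overlap for 9 genes higher and 21 lower in RVC, against 26.5% higher and 26.6% lower over all genes. The median log2 difference over the 50 genes was -0.08, against 0.01 over all genes tested. Signs were positive for 18 and negative for 32 of the 50, against 7023 positive and 6748 negative over all genes tested.

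**Figure D4:**
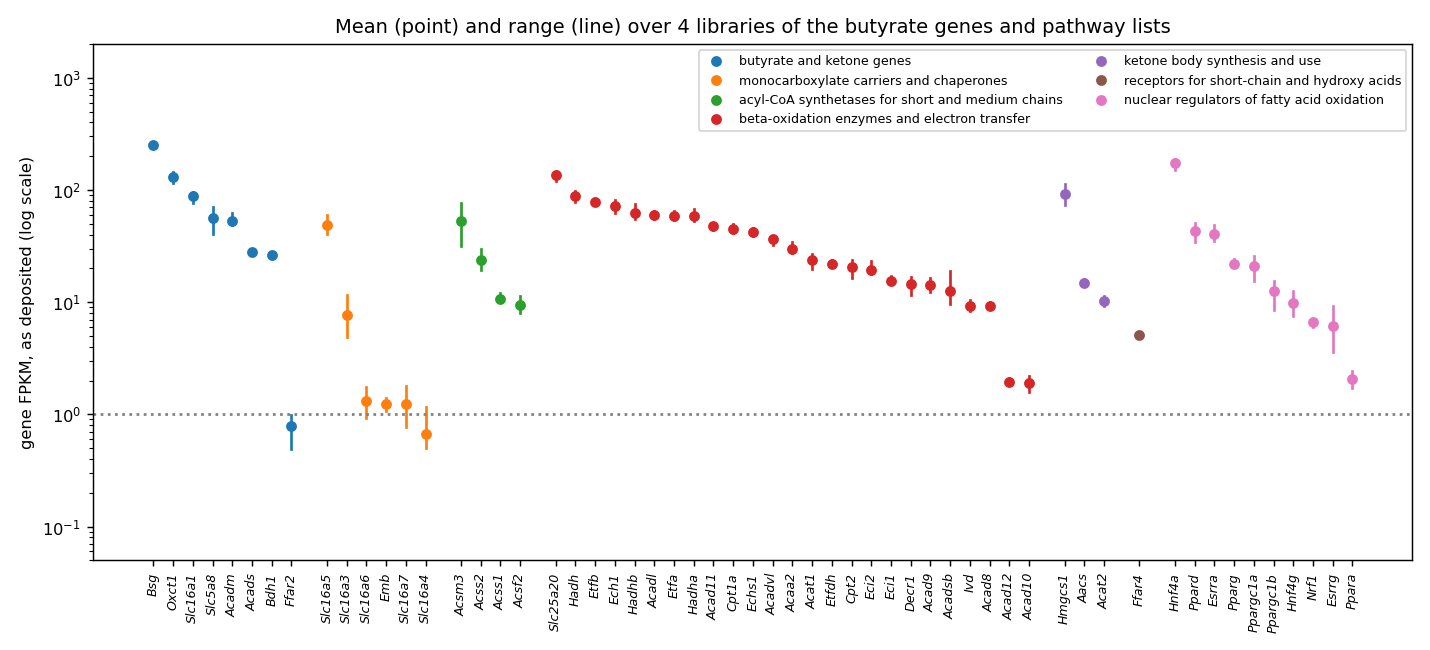
Gene FPKM as deposited (log axis) of the 8 genes and of the pathway genes that reach 1 FPKM in at least 1 library, grouped by list, without those not reported here; points are means and lines run from the lowest to the highest of the 4 libraries. Bsg (252 FPKM) and Hnf4a (173 FPKM) stand highest, and Ffar2 (0.780 FPKM) lies far below the other butyrate genes.

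Butyrate must be joined to CoA before it can be oxidised, and Acsm3, a mitochondrial acyl-CoA synthetase for short and medium chains, was the most abundant gene of that list. It measured 31.5 and 40.1 FPKM in RVC 1 and 2, and 76.7 and 61.1 in fresh frozen 1 and 2. Both RVC libraries were lower, as for Slc5a8. Its log2 difference of -0.92 (SE 0.154) did not pass, with an adjusted limma p of 0.118. When libraries were scaled to the epithelial genes it did pass, at -1.06 with an adjusted limma p of 0.0173. That scaling also moved the median log2 difference of all genes to -0.11. Of the 9 synthetase genes listed, 4 were tested and all 4 log2 differences were below 0. Acss2 and Acss1, which activate acetate, had log2 differences of -0.33 and -0.19, and Acsf2 one of -0.06. Acsm1 and Acsm2 were listed at 0 in all 4 libraries.

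The beta-oxidation list was measured in full, with 25 of 25 genes tested. The signs were positive for 7 and negative for 18 genes, against 7023 positive and 6748 negative over all genes tested. The median log2 difference was -0.13, against 0.01 over all genes tested. With no overlap between groups, 3 genes were higher and 12 lower in RVC, where 26.5% of all genes tested were higher and 26.6% lower. The carnitine carrier Slc25a20 led the list at 134.7 ± 12.2 FPKM (SD, n = 4), followed by the hydroxyacyl-CoA dehydrogenase gene Hadh (87.8 ± 8.03), whose enzyme acts after Acads, and the electron carrier Etfb (78.7 ± 2.22), which takes electrons from the acyl-CoA dehydrogenases. Their log2 differences were 0.07, -0.17 and 0.07. The ends of the list were Acad9 at 0.22 and the branched-chain enzyme Acadsb at -0.52, the latter with an adjusted limma p of 0.242. Acadsb was at -0.21 without fresh frozen 1, its highest library, and at -0.84 without fresh frozen 2.

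Among the 9 other genes of ketone body synthesis and use, 5 were tested, with a median log2 difference of -0.13. Hmgcs1, an enzyme of cholesterol synthesis, had the lowest value, at -0.46 (SE 0.112, adjusted limma p 0.138), from 80.3 and 73.7 FPKM with RVC, and 113 and 101.05 fresh frozen. Aacs, which returns acetoacetate to lipid synthesis, was at 14.9 ± 0.757 FPKM (SD, n = 4) with a log2 difference of -0.09.

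Of the other receptors, only Ffar4, a receptor for long-chain fatty acids, reached the level for testing, at 5.07 ± 0.308 FPKM (SD, n = 4) and a log2 difference of -0.11. Ffar3, the partner receptor of Ffar2 for short chains, measured 0.401, 0.316, 0.194 and 0.226 FPKM. Hcar2, a receptor for beta-hydroxybutyrate and butyrate, was at 0.138 ± 0.0563 FPKM (SD, n = 4).

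All 10 nuclear regulators were tested, with 7 positive and 3 negative signs and a median log2 difference of 0.11. Hnf4a, a regulator of intestinal epithelial genes, led at 173 ± 16.3 FPKM (SD, n = 4), followed by the fatty acid receptor Ppard (42.9 ± 6.88) and the estrogen-related receptor Esrra (40.6 ± 5.53). Their log2 differences were 0.18, 0.22 and 0.24, and with a library left out in turn that of Ppard lay between 0.02 and 0.41. Esrrg, another estrogen-related receptor, measured 4.40 and 3.59 FPKM with RVC, and 7.13 and 9.17 fresh frozen, and its log2 difference of -0.86 (SE 0.164, adjusted limma p 0.129) did not pass. The coactivator Ppargc1a was at the other end, at 0.30. The signs of Slc25a20 and Etfb turned when libraries were scaled to the epithelial genes, and those of Acad9, Ppargc1a and Esrrg turned when the most abundant transcript stood for the gene.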

How the data were processed

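RNA was depleted of ribosomal RNA and sequenced as 150-bp pairs, per the labels' protocols. TopHat 2.1.1 (alignment to GRCm39) and Cufflinks 2.2.1 (transcript levels) were used by the authors, per the submitters' processing notes; the annotation release and strand setting are not given in the sources used here. The deposited FPKM values are per transcript, with Cufflinks' own lower and upper bounds, and a test made for counts was therefore left aside. The deposited coverage, a signal of reads per base, served only to compare depth; read totals are unknown.

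Gene FPKM was the sum over transcripts. Libraries were scaled by median ratios (factors 0.992 to 1.01), and genes that averaged at least 1 scaled FPKM, with a transcript of at least 300 nt and status OK in all 4 libraries were tested: 13771 genes and 24174 transcripts. The test was limma 3.58.1 (R 4.3.3) with trend on log2(scaled FPKM + 1), two-sided, Benjamini-Hochberg adjusted over all genes or transcripts, with a threshold of 0.05. Such differences understate changes of low genes. The test was tried first on data simulated from its own fitted variances with independent noise. Those data hold no batch or cell type differences, so the trial cannot show how the test deals with them. Sequences came from GRCm39 with GENCODE vM39, in which 99.1% of the transcript identifiers were found; the lengths of all 40 transcripts of the 8 genes matched its exons.

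The 8 genes and all lists were chosen with earlier results of these data known. Besides the 8 genes, each pathway list is named by its genes past the threshold, its 3 most abundant and its highest and lowest log2 difference; transcripts are named from 10% of a gene in any library. A few genes outside this rule (Emb, Ffar3, Hcar2, Acsm1, Acsm2, Acadl, Acad11 and Acadvl) were added after their values were seen. So were the transcripts ENSMUST00000153374 and ENSMUST00000200250. List genes with no row of their symbol (Acsf3, Or51e2, Prac1, Tubb3) were not analysed here. A few results on other genes of the ketone body list are not reported here.

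Alternatives were another pseudocount (0.1), other scalings, other filters on level (none, or 5) and length, the gene's top transcript instead of its sum, a fit without trend, a replicate block, and leaving out each library.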

Additional observations from a re-analysis of the deposited data

How the results depend on the processing

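Of the 7 genes, 0 passed the threshold in any of the 17 alternatives, and 110 of 119 recomputed log2 differences kept their sign. Slc5a8 stayed between -0.75 and -0.49, with adjusted limma p-values from 0.0725 to 0.443. The count over all genes, 5 in the fit as reported, was less steady: it was 46 (15 higher, 31 lower) with scaling to the epithelial genes, 0 with no filter on low values, 14 with a minimum of 5 FPKM, 0 with transcripts under 300 nt left out, 2 with the most abundant transcript, 0 without trend, and 8 (without RVC 2) to 40 (without fresh frozen 1) with a library left out, with 29 without RVC 1 and 22 without fresh frozen 2. In the settings with 0 calls, 3531, 2577 and 2461 genes were at an unadjusted limma p under 0.05. The count of transcripts, 1 as reported, was 0 with no filter, 6 with a minimum of 5 FPKM, 7 with no length minimum and 0 to 0 with a library left out. Of the pathway genes 1 was called with the epithelial scaling, Acsm3.

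Replicate numbers are shared by the labels, but nothing says that they pair libraries, and with 2 pairs the data cannot show it. Deviations of same-numbered libraries correlated at -0.134 across genes. With the replicate block 112 genes were called (71 higher, 41 lower) and 2 pathway genes, Slc16a3 (adjusted limma p 0.0222) and Acsm3 (0.0323). With the crossed pairing, chosen after seeing the data, 12 genes were called. Neither fit called any of the 8 genes.

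Signs turned as follows, with none of these values called. With the epithelial scaling Bsg went to -0.094, Acads to -0.062, Oxct1 to -0.10, Slc25a20 to -0.068 and Etfb to -0.070. With the most abundant transcript Oxct1 went to -0.23, Acad9 to -0.035, Ppargc1a to -0.25 and Esrrg to 0.32. With a library left out in turn, Slc16a1 and its transcript ENSMUST00000046212 ranged from -0.28 to 0.013, Bsg from -0.0086 to 0.10, Acadm from -0.29 to 0.033, Bdh1 from -0.11 to 0.013, Oxct1 from -0.12 to 0.19, Acsf2 from -0.30 to 0.18, Slc25a20 from -0.033 to 0.17, ENSMUST00000179781 from -0.017 to 0.082, ENSMUST00000149039 from -1.23 to 1.27 and ENSMUST00000031524 from -0.021 to 0.038. Where a group had 1 library left, it was assumed to vary like the other group. The causes were not tested. The sequencing depth behind these values is unknown.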
